A study of Ursus arctos with 12 samples.

Results

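The transcripts described here encode the myocyte enhancer factors MEF2A, MEF2B, MEF2C and MEF2D and the class IIa histone deacetylases HDAC4, HDAC5, HDAC7 and HDAC9, taken by gene symbol from the count table. All 8 were found among its 30249 genes, and all 8 passed the limit of 30 reads summed over the libraries, as did 17290 genes in all. The libraries came from the vastus lateralis, a thigh muscle, of 6 free-ranging brown bears aged 2 to 3 years. Each bear was biopsied during winter hibernation and again in the summer active period, so that there were 6 winter and 6 summer libraries. No genotype or treatment other than season separated the groups, and all animals were captured and anaesthetised for sampling.

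MEF2 proteins are transcription factors of the MADS-box family that bind AT-rich sites in the control regions of muscle genes and act together with myogenic factors. Class IIa HDACs bind MEF2 on DNA and hold its targets repressed. Calcium-dependent and related kinases phosphorylate these HDACs, which are then bound by 14-3-3 proteins and leave the nucleus, while p38 and ERK5 kinases and the phosphatase calcineurin raise MEF2 activity. In skeletal muscle the system is known for linking nerve activity and exercise to fibre type and metabolism, and HDAC4 for its part in the response to denervation. These steps act on proteins, whereas the values below are of mRNA.

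Between 16742406 and 32140160 reads per library were counted on genes. On the first principal component, which held 41.5% of the variance, winter libraries lay at 25.5 to 74.4 and summer libraries at −65.8 to −41.9. The winter library of bear 1509 stood apart on the second component (14.6%), at −98.6, with the other winter libraries at 6.35 to 23.1. Of the muscle fibre markers, 6 of 7 were tested, with 109988 to 2137210 reads per gene and library, and MYH7 was not analysed here. TTN, with a log2 fold change of 0.65 (adjusted p = 0.0036), and NEB, with one of 0.53 (adjusted p = 0.00805), were higher in winter, ACTA1 was lower at −0.90 (adjusted p = 0.0212), and the other 3 were not called. Transcripts of other cell types were also present. Endothelial markers were lower in winter for 6 of 7 genes, fibroblast markers for 3 of 5, smooth muscle and pericyte markers for 2 of 5, macrophage markers for 2 of 4 and satellite cell markers for 2 of 2. Over all genes tested, 19.9% were called lower. Of the adipocyte markers, 0 of 3 were called in edgeR (1 lower at an unadjusted p below 0.05). In such bulk RNA, fewer cells of a type and less RNA per cell cannot be told apart.

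In winter, MEF2A, MEF2B, MEF2C and HDAC9 were higher, while MEF2D, HDAC4, HDAC5 and HDAC7 did not pass the test. A gene was called at an adjusted p below 0.05 in edgeR's quasi-likelihood test, adjusted over all genes tested. By this rule 4 of the 8 passed upward and 0 downward. Of all genes tested, 19.6% were called higher and 19.9% lower. At an unadjusted p below 0.05, 0 of the 8 were lower, as were 0 by DESeq2 and 0 by limma voom. MEF2 factors made up 3 of the 4 calls, out of 4 tested, and class IIa HDACs made up 1 out of 4. The MEF2B call rests on 1 to 11 reads per library and was lost in 5 of the 14 alternative fits that tested the gene. Outside those fits, it also missed the stricter limits (adjusted p below 0.01, fold above 1.3), which MEF2A, MEF2C and HDAC9 passed. MEF2B also enters the median of its family. The median log2 fold change of winter over summer was 1.03 for the MEF2 factors and −0.01 for the class IIa HDACs, beside 0.00 for all genes tested.

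**Figure D1:**
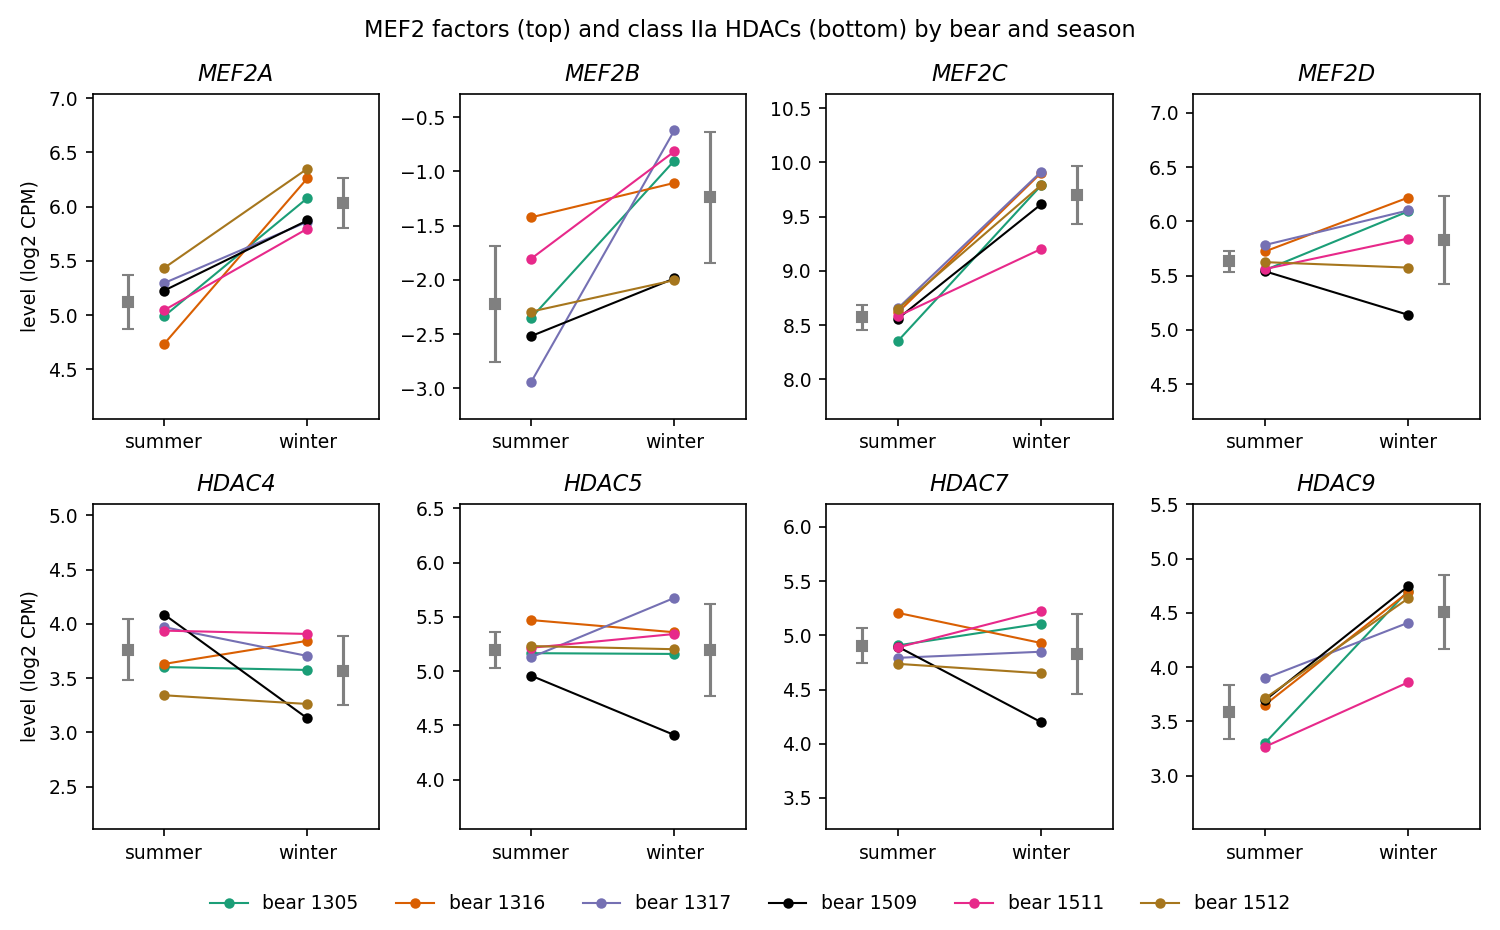
Levels in log2 CPM (vertical axes, each spanning the same range) of the 4 MEF2 factors and the 4 class IIa HDACs in summer and winter, with a line for each of the 6 bears and grey squares for the mean ± SD of a season. MEF2A and MEF2C rise in every bear without overlap between seasons, HDAC9 rises in every bear with slight overlap, and bear 1509 (black) falls in MEF2D, HDAC4, HDAC5 and HDAC7.

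MEF2C, a factor needed for sarcomere assembly and the upkeep of differentiated fibres, had 8232 to 10259 reads per summer library and 9787 to 27207 per winter library. Its level ran from 8.35 to 8.66 log2 CPM in summer, with a median of 8.60, and from 9.20 to 9.91 in winter, with a median of 9.79. The seasons did not overlap, which was true of 9.12% of all genes tested with winter higher and of 8.21% with winter lower. The lowest winter library, that of bear 1511, was still above every summer library. The log2 fold change was 1.15 (standard error, SE, 0.13, adjusted p = 2.35e-05), a 2.22-fold rise. By bear the winter minus summer difference was 0.62 in bear 1511, 1.05 in bear 1509, 1.14 in bear 1512, 1.26 in bear 1317, 1.29 in bear 1316 and 1.43 in bear 1305, higher in 6 of 6. Of all genes tested, 18.4% were higher in winter in all 6 bears and 19% were lower in all 6. These shares belong beside every count of 6 of 6 bears given below. Endothelial cells also express MEF2C, and the summed level of the endothelial markers was lower in winter (8.69 to 8.91 log2 CPM) than in summer (9.29 to 9.91). Its part in the MEF2C result was not tested.

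MEF2A, the family member expressed in most tissues and in muscle from early differentiation, ran from 4.74 to 5.44 log2 CPM in summer and from 5.80 to 6.35 in winter, with medians of 5.14 and 5.98. Here too the seasons did not overlap. Bear 1316 had the lowest summer level, 4.74, and the second highest winter level, 6.26, and its difference of 1.53 was the largest of the 6. The smallest was 0.57 in bear 1317. The fitted log2 fold change was 0.92 (SE 0.13, adjusted p = 0.000176), a 1.89-fold rise seen in 6 of 6 bears. MEF2A and MEF2C were called under every one of 15 alternative settings, with log2 fold changes of 0.80 to 0.99 for MEF2A and 1.06 to 1.24 for MEF2C.

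MEF2B, best known from B cells, was close to the limit of detection, with 1 to 6 reads per summer library and 3 to 11 per winter library, 20 and 46 reads in all. Its level ran from −2.94 to −1.42 log2 CPM in summer, with a median of −2.32, and from −2.002 to −0.62 in winter, with a median of −1.003. The seasons overlapped, although each bear was higher in winter than in its own summer, by 0.29 (bear 1512) to 2.32 (bear 1317). The log2 fold change was 1.35 (SE 0.47, adjusted p = 0.0361). This call was lost without bear 1305 (adjusted p = 0.119), without bear 1317 (0.128), without bear 1511 (0.0647), without the filter on low counts (0.0531) and in DESeq2 once bear identity entered as a replicate block (0.119), within 0.0193 to 0.128 over the alternatives. Of the lymphocyte markers tested, 1 was higher and 2 were lower. Their summed level was 0.35 to 0.91 log2 CPM in summer and 0.55 to 1.34 in winter, and its part in the MEF2B result was not tested.

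MEF2D, whose muscle-specific splice form activates late differentiation genes, was at 5.54 to 5.78 log2 CPM in summer and 5.14 to 6.22 in winter, with medians of 5.59 and 5.97. Summer levels were close together (SD 0.10) and winter levels spread more widely (SD 0.41). It was higher in winter in 4 of 6 bears, by 0.28 to 0.54, and lower in bear 1509, by −0.40, and in bear 1512, by −0.05. The log2 fold change was 0.24, with a 95% interval of −0.09 to 0.57 (adjusted p = 0.233), and the gene was not called. Without bear 1509 it was called, at 0.34 (adjusted p = 0.0459), and without the winter library of bear 1509 alone, a setting added after the data were seen, at 0.35 (adjusted p = 0.0257). Over the alternatives its adjusted p spanned 0.0257 to 0.506. Splice forms are not told apart in counts per gene.

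HDAC9, whose short form MITR lacks the deacetylase domain and still represses MEF2, was the class IIa HDAC that rose. It had 239 to 341 reads per summer library and 240 to 760 per winter library. Its level was 3.27 to 3.90 log2 CPM in summer and 3.86 to 4.75 in winter, with medians of 3.67 and 4.66. The seasons overlapped by the winter library of bear 1511 alone, which at 3.86 lay just under the summer library of bear 1317 at 3.90. The log2 fold change was 0.94 (SE 0.16, adjusted p = 0.000497), a 1.92-fold rise. Single bears differed by 0.51 in bear 1317 to 1.41 in bear 1305, higher in 6 of 6. The call held under all 15 alternatives, with adjusted p of at most 0.00448.

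HDAC4, the class IIa HDAC most studied in denervated muscle, had a log2 fold change of −0.19 with a 95% interval of −0.54 to 0.17 (adjusted p = 0.386). Its level was 3.34 to 4.09 log2 CPM in summer and 3.13 to 3.91 in winter, with medians of 3.78 and 3.64. It was lower in 5 of 6 bears, but by only −0.27 to −0.03 in 4 of them, against −0.96 in bear 1509, and it was higher by 0.21 in bear 1316. The interval leaves room for a fall to a log2 of −0.54 and does not reach the rise of HDAC9.

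HDAC5, which shares with HDAC4 the control of MEF2 by calcium-dependent kinases and AMP-activated kinase, was at 4.96 to 5.47 log2 CPM in summer and 4.41 to 5.68 in winter, with medians of 5.19 and 5.27. Its log2 fold change was 0.04, with a 95% interval of −0.32 to 0.39 (adjusted p = 0.879). In 4 of 6 bears its winter level was the lower one, while it was higher in bears 1317 (0.55) and 1511 (0.13).

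HDAC7, which is most abundant in endothelium and in developing lymphocytes, was at 4.74 to 5.21 log2 CPM in summer and 4.20 to 5.23 in winter, with medians of 4.89 and 4.89. The log2 fold change was −0.05, with a 95% interval of −0.37 to 0.28 (adjusted p = 0.823), and 3 bears were higher and 3 lower. The endothelial markers called lower had log2 fold changes between −1.28 (VWF, adjusted p = 3.69e-05) and −0.42 (PECAM1, adjusted p = 0.0416), and TEK, not called, stood at −0.09. The part of endothelial RNA in the HDAC7 values was not tested.

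**Figure D2:**
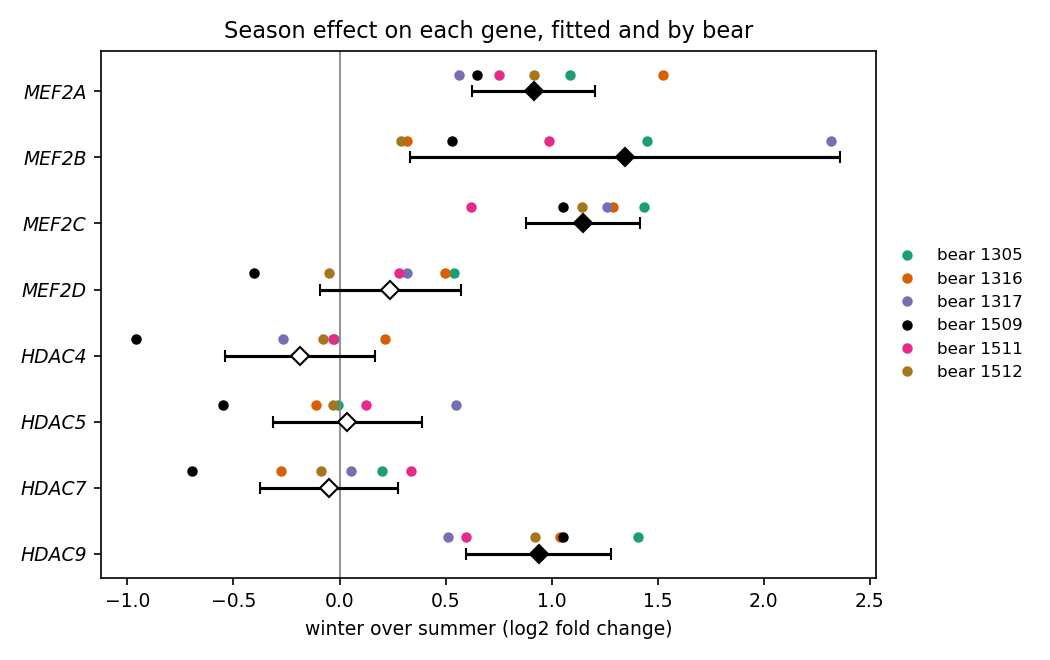
Season effect on each gene on the log2 scale (horizontal axis): diamonds and bars are the fitted log2 fold change with its 95% interval, filled where the adjusted p was below 0.05, and coloured points above them are the differences of the 6 bears. The intervals of MEF2A, MEF2C and HDAC9 begin at 0.63, 0.88 and 0.60. Those of MEF2D, HDAC4, HDAC5 and HDAC7 include 0, and that of MEF2B is the widest.

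The winter library of bear 1509 was the lowest of the 6 winter libraries for the 4 genes that were not called, MEF2D, HDAC4, HDAC5 and HDAC7. For HDAC5 it lay at 4.41 log2 CPM, with the others at 5.16 to 5.68. For HDAC7 it lay at 4.20, with the others at 4.65 to 5.23. In the same library MEF2A was at 5.87, within the range of the other winter libraries, and HDAC9 was the highest of the season at 4.75. Without this library the log2 fold changes were −0.11 for HDAC4 (adjusted p = 0.604), 0.16 for HDAC5 (adjusted p = 0.301) and 0.05 for HDAC7 (adjusted p = 0.745).

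Whether genes of a family changed by different amounts was tested on the ratio of their reads within a library, which does not depend on the normalization. For each of the 12 pairs within a family, the change in the log2 ratio from summer to winter was taken by bear, with 2 reads added to each count, and tested by an exact two-sided sign-flip permutation test over the 6 bears. The smallest p that this test can give is 0.03125. The ratio of MEF2C to MEF2D rose by 0.93 ± 0.38 (SD, n = 6 bears, exact permutation p = 0.03125), with each bear above 0. That of MEF2A to MEF2D rose by 0.72 ± 0.34, again in 6 of 6 bears (exact permutation p = 0.03125). HDAC4 fell relative to HDAC9 by 1.11 ± 0.52 and HDAC7 fell relative to HDAC9 by 0.998 ± 0.56, both in 6 of 6 bears (exact permutation p = 0.03125 for each). In each of these 4 pairs bear 1509 changed most. Its change was 1.05 for MEF2A/MEF2D, next to 1.03 in bear 1316, and 1.45 for MEF2C/MEF2D. For HDAC4/HDAC9 it was −2.01 and for HDAC7/HDAC9 −1.75. These 4 pairs were at the smallest p, and adjusted over the 12 pairs each had a p of 0.0938, which misses 0.05. With 6 bears and only 4 of the 12 pairs at that floor, the adjusted p could not fall below 0.05. How many pairs reached the floor was itself a result, so the design alone did not fix the miss. The adjusted p does not measure the size of these differences.

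The ratio of HDAC5 to HDAC9 changed by −0.92 ± 0.61, down in 5 of 6 bears (exact permutation p = 0.0625, adjusted 0.125). In bear 1317 it moved by 0.03. MEF2A and MEF2C were not told apart, with a change in their ratio of −0.22 ± 0.35 (exact permutation p = 0.219, adjusted 0.375). Among HDAC4, HDAC5 and HDAC7 the ratios changed by −0.19 to 0.07 on average, and the lowest exact permutation p was 0.281 (adjusted 0.422). The ratios with MEF2B varied most between bears, with an SD of up to 1.06.

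**Figure D3:**
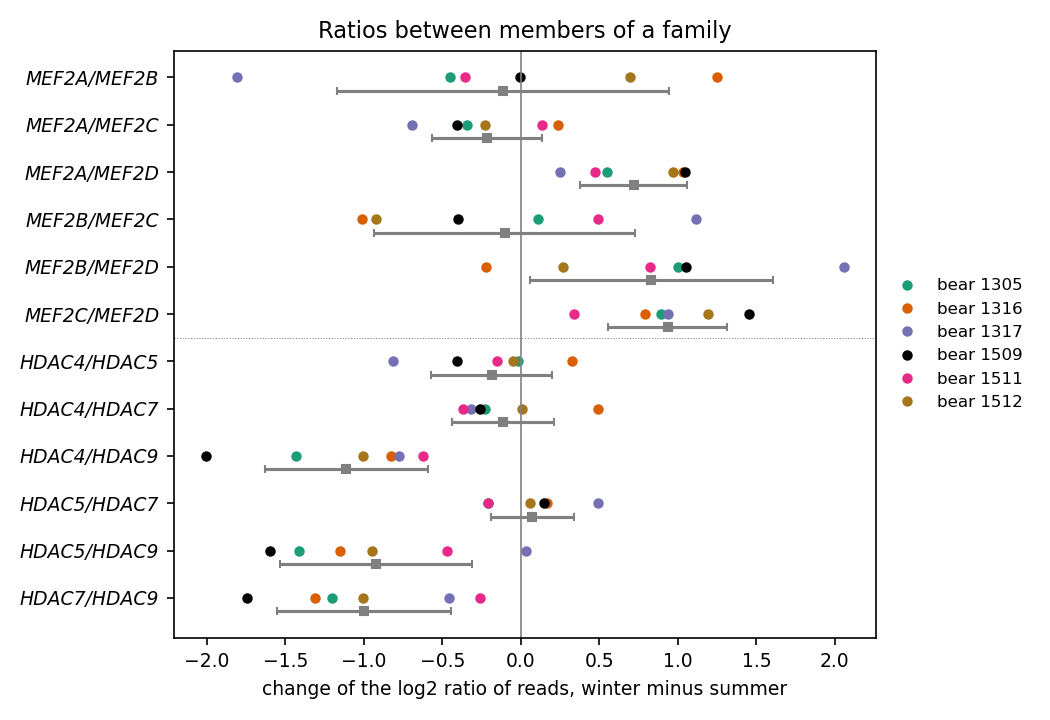
Change from summer to winter in the log2 ratio of reads (horizontal axis) for the 12 pairs of genes within a family, with a coloured point for each of the 6 bears and a grey square with a bar for the mean ± SD. All 6 bears lie above 0 for MEF2A/MEF2D and MEF2C/MEF2D and below 0 for HDAC4/HDAC9 and HDAC7/HDAC9.

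Set against each other as families, the summed MEF2 reads rose relative to the summed class IIa HDAC reads by 0.92 ± 0.30 on the log2 scale (SD, n = 6 bears). The log2 ratio was 2.33 ± 0.13 in summer and 3.25 ± 0.29 in winter (SD, n = 6). It rose by 0.37 in bear 1511, by 0.84 in bear 1317, by 0.90 in bear 1512, by 1.03 in bear 1305, by 1.16 in bear 1316 and by 1.20 in bear 1509. The sum is mostly MEF2C, which held 80.6 to 89.3% of the MEF2 reads of a library. Without MEF2C the change was 0.42 ± 0.25, from 0.14 to 0.86, and above 0 in 6 of 6 bears. The deposited table gives no transcript lengths, so levels were not ranked between genes, and no test was made of this sum.

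The genes whose profiles over the 12 libraries lay closest to each member were found by the root mean square difference of mean-centred log2 CPM among 10344 named genes (10345 for MEF2B). MEF2C was closest to RAPGEF2, an exchange factor for Rap GTPases, at 0.11, and to SLC25A17, a peroxisomal carrier, at 0.13. MEF2A was closest to ZC3H6 at 0.12 and BAZ2B at 0.13, and HDAC9 to ZC3H6 at 0.16 and ZMYM5 at 0.16. Thus ZC3H6, a zinc finger protein, was the nearest gene to both MEF2A and HDAC9. The nearest genes of MEF2D were ITPKC at 0.10 and SIN3B at 0.11, those of HDAC4 were MYO1C at 0.12 and PRRC2A at 0.13, those of HDAC5 were AEN at 0.13 and BAG6 at 0.14, and those of HDAC7 were the splicing factors U2AF2 and PUF60, at 0.11 each. For MEF2B they were NME4 at 0.23 and LARP6 at 0.27, the loosest match of the 8. This likeness follows season and library effects alike and carries no test.

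Among the kinases that phosphorylate class IIa HDACs, 3 of 17 were higher and 3 lower in winter, with a median log2 fold change of −0.03. For this list and those that follow, the shares to set beside the counts are 19.6% higher and 19.9% lower over all genes tested. CAMK1D, a calcium/calmodulin-dependent kinase, was lower at −1.34 (SE 0.27, adjusted p = 0.00145), as were CAMK1 at −0.63 (adjusted p = 0.0147) and SIK2, a salt-inducible kinase, at −0.59 (adjusted p = 0.00253), each in 6 of 6 bears. CAMK2D, a subunit of the main calcium/calmodulin-dependent kinase of muscle, was higher at 0.59 (adjusted p = 0.0122). The catalytic subunits of AMP-activated kinase rose as well, PRKAA2 at 0.46 (adjusted p = 0.0229) and PRKAA1 at 0.41 (adjusted p = 0.00363). With library totals in place of TMM, CAMK2D (adjusted p = 0.0526) and PRKAA2 (0.0722) were not called. Leaving out a bear also ended the calls of CAMK2D (bear 1316, 0.0529), PRKAA2 (bears 1305, 1316 and 1509, 0.062, 0.0582 and 0.063) and CAMK1 (bear 1305, 0.0575).

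Of the 14-3-3 proteins, which hold phosphorylated class IIa HDACs in the cytoplasm, 6 of 7 were tested. YWHAG was higher, at 0.70 (SE 0.12, adjusted p = 0.000476), and YWHAQ was lower, at −0.63 (SE 0.15, adjusted p = 0.0044), both in 6 of 6 bears with no overlap between seasons. The other 4 were not called, and the median was 0.17.

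Of the 6 genes of the HDAC3 co-repressor complex, through which class IIa HDACs act on chromatin, 2 were higher and 1 lower. TBL1XR1 rose by 0.52 (SE 0.10, adjusted p = 0.000854). HDAC3, the catalytic subunit, was at 0.22 (SE 0.08, adjusted p = 0.0446), higher in 6 of 6 bears with no overlap, but its adjusted p was 0.0881 once bear identity entered as a replicate block, 0.265 under scaling by library totals and 0.0547 to 0.124 whichever bear was left out. TBL1X was lower, at −0.35 (adjusted p = 0.0342), a call lost without bear 1316, 1317 or 1512 (adjusted p = 0.0704, 0.111 and 0.0927) and without the winter library of bear 1509 (0.0623). The co-repressor NCOR1 stood at −0.27 (adjusted p = 0.0774).

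Among the 7 HDACs of the other classes, 2 were higher, HDAC3 and HDAC8, and 0 were lower in edgeR (0 at an unadjusted p below 0.05, 0 in DESeq2 and 0 in limma voom). HDAC8, a class I enzyme, rose by 0.90 (SE 0.15, adjusted p = 0.000429) in 6 of 6 bears with no overlap. HDAC1, HDAC2, HDAC6, HDAC10 and HDAC11 lay between −0.25 and 0.07 and were not called. So 1 of 4 class IIa HDACs and 2 of 7 others were called higher, beside 19.6% of all genes.

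In the kinase inputs to MEF2, 3 of 8 genes were lower and 0 higher in edgeR (1 at an unadjusted p below 0.05, 1 in DESeq2 and 0 in limma voom), with a median of −0.27. MAP2K6, which activates p38, had a log2 fold change of −1.54 with an SE of 0.22 (adjusted p = 0.000149). MAPK12, the p38 isoform of skeletal muscle, fell by 0.75 (SE 0.10, adjusted p = 8.77e-05), and both genes had no overlap between seasons. MAP2K3 was lower, at −0.32 (adjusted p = 0.0263), a call that leaving out bear 1317 (adjusted p = 0.103) or bear 1509 (0.106) ended. MAPK14, the p38 isoform of most tissues, stood at 0.00 (adjusted p = 0.994).

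For calcineurin and its NFAT partners, 3 of 12 genes were higher and 1 lower, with a median of 0.11. PPP3R1, the regulatory subunit of calcineurin, rose by 0.78 (SE 0.12, adjusted p = 0.000272) and the catalytic subunit PPP3CC by 0.53 (SE 0.12, adjusted p = 0.00298). The transcription factor NFATC3 rose by 0.90 (SE 0.15, adjusted p = 0.000351), while NFATC4 fell by 0.86 (SE 0.20, adjusted p = 0.00442). PPP3CA, at 0.34 (adjusted p = 0.264), and RCAN1, a calcineurin inhibitor, at −0.26 (adjusted p = 0.604), were not called.

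Of 10 partners and co-activators of MEF2, 3 were higher and 1 lower, with a median of 0.16. The acetyltransferase CREBBP rose by 0.72 (SE 0.18, adjusted p = 0.00517) and the co-activator NCOA2 by 0.64 (SE 0.10, adjusted p = 0.000353), both in 6 of 6 bears. MYF6, the myogenic factor of mature fibres, was higher at 0.73 (adjusted p = 0.0379) in 5 of 6 bears, a call lost in limma voom (adjusted p = 0.067) and without bear 1316, 1317 or 1512 (0.0962, 0.158 and 0.093). MYF5, which marks satellite cells and myoblasts, fell by 2.04 (SE 0.29, adjusted p = 0.000122), and the satellite cell marker PAX7 was also lower, at −0.81 (adjusted p = 0.0298).

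Of 15 genes known as MEF2 targets in muscle, 0 were higher in edgeR (0 at an unadjusted p below 0.05, 0 in DESeq2 and 0 in limma voom). In edgeR 3 were lower, and the median was −0.09. Over all genes tested, 19.6% were called higher and 19.9% lower, so the count of lower targets was near the general share. Once bear identity entered as a replicate block, 1 was higher, SRPK3 (log2 fold change 0.46, adjusted p = 0.0436), and with the block in DESeq2 2 were, SRPK3 (adjusted p = 0.0248) and XIRP1 (0.0211). In these fits NR4A1, an orphan nuclear receptor, was also called lower, at −1.16 (adjusted p = 0.0445) and −1.20 (0.0490), against −0.66 (adjusted p = 0.35) without the block, so that 4 were lower. Without the winter library of bear 1509, SRPK3 (adjusted p = 0.0319) and XIRP1 (0.0458) were again called higher, at 0.62 and 0.88. Myoglobin, MB, was lower at −1.01 (SE 0.18, adjusted p = 0.000639) in 6 of 6 bears with no overlap. The M-band gene MYOM1 stood at −0.42 (adjusted p = 0.0217) and HRC, a calcium-binding protein of the sarcoplasmic reticulum, at −0.32 (adjusted p = 0.0195), both lower in 6 of 6 bears. MYOM1 was not called without bear 1305, 1317 or 1509 (adjusted p = 0.0619, 0.0838 and 0.0621), and neither was HRC without bear 1317, 1509 or 1512 (0.0577, 0.0843 and 0.0672). The muscle creatine kinase CKM was at 0.03 (adjusted p = 0.91), and PPARGC1A, the co-activator of mitochondrial genes, was at −0.09 (adjusted p = 0.814).

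Of 6 denervation genes linked to HDAC4, 2 were higher and 1 lower. CHRNG, the fetal subunit of the acetylcholine receptor, had 10 to 30 reads in summer and 8 to 193 in winter, a log2 fold change of 2.29 (SE 0.58, adjusted p = 0.00699), higher in 5 of 6 bears. Without bear 1317 it was 1.596 (adjusted p = 0.0372). GADD45A, a stress response gene, rose by 1.08 (SE 0.25, adjusted p = 0.00395) in 6 of 6 bears. ENO3, the muscle enolase of glycolysis, fell by 1.305 (SE 0.25, adjusted p = 0.00119). MYOG, DACH2 and CHRNA1 lay between −0.57 and −0.22 and were not called.

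**Figure D4:**
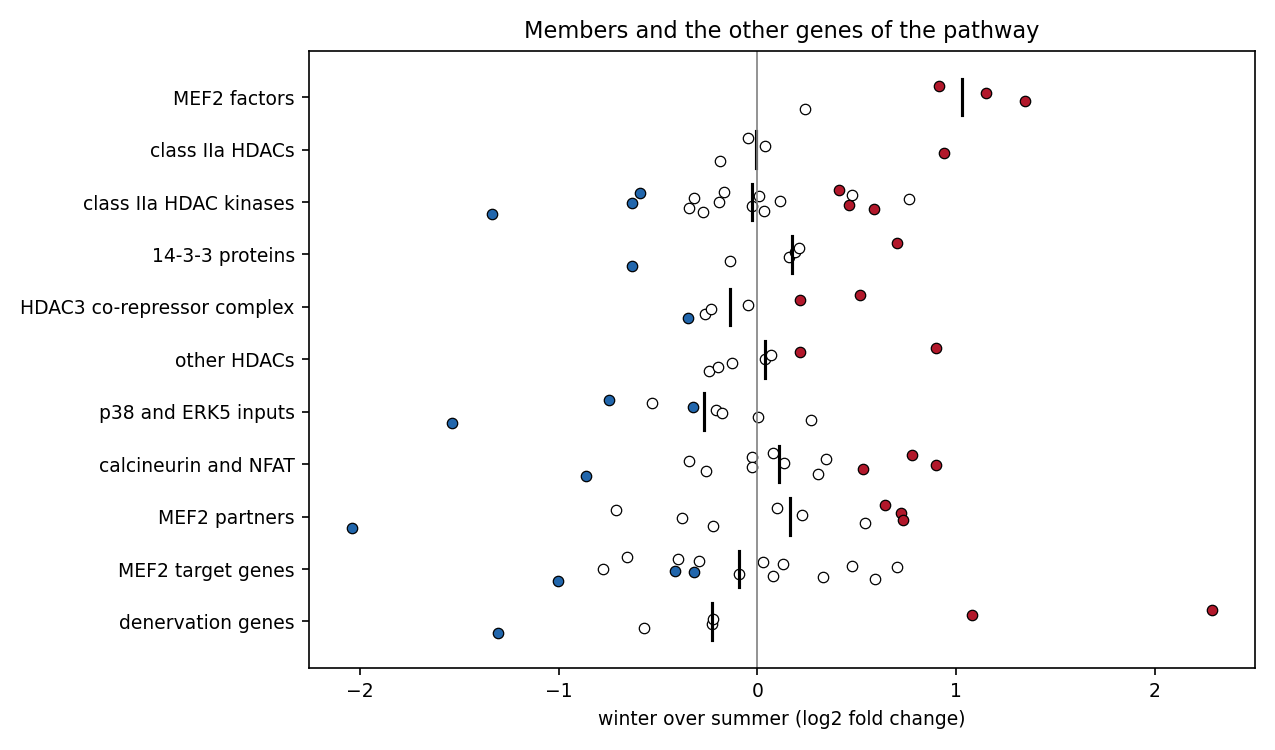
Log2 fold change of winter over summer (horizontal axis) for each tested gene of the 2 families and of the 9 pathway lists, with red and blue points for genes higher and lower at an adjusted p below 0.05, open points for the rest and a vertical bar for the median of a list. The median of the MEF2 factors, the sparsely counted MEF2B included, is 1.03, and those of the other lists lie between −0.27 and 0.17.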

How the data were processed

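Stranded libraries of poly-A RNA were sequenced as single reads of 50 bases. The authors aligned them with TopHat2 2.1.1 to the bear assembly ASM358476v1, discarded alignments with more than 3 mismatches and counted reads per gene on the opposite strand with featureCounts 1.6.2. The deposited values are these raw counts, neither normalized nor filtered, from 16742406 to 32140160 reads per library. The libraries were spread over sequencing lanes that the sources used here do not assign, so lane and season were not separated.

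Genes under 30 reads in all, which held 0.019% of the reads, were removed, the rest scaled by TMM, and winter was compared with summer in edgeR 4.0.16 (R 4.3.3, glmQLFit and glmQLFTest, season the only term), with Benjamini-Hochberg adjustment over 17290 genes. Levels are log2 CPM with a prior count of 2. The standard error is the log2 fold change divided by the square root of F. In this main fit the p-values, standard errors and intervals treat the 12 libraries as independent and do not use the pairing by bear. The fits were first tested on simulated data. Alternatives were the bear as a replicate block, DESeq2 1.42.0, limma 3.58.1 voom, RLE, library totals, other filters, stricter limits and each bear left out.

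Each bear gave a library in both seasons. Deviations from season means correlated at 0.0903 to 0.344 within bears. Between bears their median correlation was −0.0634 and the highest 0.142, so the 2 sets of values overlapped. The lowest chi-square per gene between libraries of a season was 39.0, so none is a copy of another library of its season. Libraries of different seasons were not compared in this way. The genes and lists were chosen with earlier results of these data known. Named genes are the 8 members, up to 3 largest rises and falls called per list, the 2 nearest profiles of each member, and some list genes that were not called, chosen after their values were seen. No sequences or transcript lengths of the bear genes were used here. Values of some single list genes are not reported here.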

Additional observations from a re-analysis of the deposited data

Results flagged for a closer look

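Within a season, 2 values stood far from the other 5 libraries, with a gap to the nearest value, as a share of the range, that passed 0.625, the 95% critical value of Dixon. Over the 37 groups of 6 values examined, chance flags about 1 in 20. MEF2C in the summer library of bear 1305 was the lowest at 8.35 log2 CPM, with the others at 8.56 to 8.66 (gap over range 0.682). Without bear 1305 the log2 fold change of MEF2C was 1.08 (adjusted p = 0.000398). HDAC7 in the summer library of bear 1316 was the highest at 5.21 log2 CPM, with the others at 4.74 to 4.91 (gap over range 0.637). Without bear 1316 the log2 fold change of HDAC7 was 0.01 (adjusted p = 0.974).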

How the results depend on the processing

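The calls of MEF2A, MEF2C and HDAC9 kept their direction and their side of the threshold under all 15 alternatives, and HDAC4 stayed uncalled and negative. Members called higher numbered 3 to 5, and 0 were called lower under any. Stricter limits (adjusted p below 0.01, fold above 1.3 or below 0.77) lowered the calls over all genes to 2077 higher and 2077 lower, from 3386 and 3445. With library totals, 2706 were higher and 3789 lower, a share of 41.7% higher against 49.6% before, and the median log2 fold change of all genes was −0.08. MEF2B was not called without the filter (log2 fold change 1.33), in DESeq2 with the replicate block (1.39) or under the stricter limits. With a bear left out its log2 fold change was 1.01 to 1.64. filterByExpr removed it. MEF2D, at 0.16 to 0.35 with a bear or library left out, was called only without bear 1509 or its winter library, 0.34 and 0.35. HDAC5, near 0, turned sign under the replicate block (−0.00177, adjusted p = 0.993), in limma voom (−0.00238), for library totals (−0.0539) and when bear 1317 was left out (−0.0831), and spanned −0.08 to 0.16 over the bears and library left out. HDAC7 was positive without bear 1316 (0.00842), bear 1509 (0.0620) or its winter library (0.0547), within −0.14 to 0.06. The ratio of MEF2B to MEF2C changed by 0.18 with 0.5 reads added in place of 2, against −0.10. With seasons permuted over all 12 libraries, with no replicate block, the adjusted exact permutation p of the ratios was 0.026 for MEF2A/MEF2D (0.72), MEF2C/MEF2D (0.93), HDAC4/HDAC9 (−1.11) and HDAC7/HDAC9 (−0.998), and 0.0303 for MEF2B/MEF2D (0.83) and HDAC5/HDAC9 (−0.92). That permutation treats the 12 libraries as independent and breaks the pairing by bear, so it does not replace the paired test, in which no pair passed after adjustment. With 5 bears the paired test cannot pass, and the ratios were then compared as values. The replicate block in edgeR changed no call of the 8 genes. The causes were not tested. Depth limits MEF2B, with 1 to 11 reads.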
